A study of Drosophila melanogaster with 12 samples.

Results

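The odorant-binding protein (Obp) genes of Drosophila melanogaster were read from every probe set that the platform annotation gives to 1 gene whose symbol begins with Obp and a digit. There were 50 such probe sets for 47 genes, out of 11982 named genes on the array, and for each gene the probe set with the highest mean over the 12 arrays was kept. All 47 members entered every test, with no filter on dim values. Females of the w1118 stock, a white-eyed laboratory strain, were moved after eclosion from cornmeal to a holidic (chemically defined) diet for 10 days at 25 °C, so all 4 groups share genotype, sex and age. The food was either unmodified or glucose-enriched, given as 100 g/L, and each RNA sample pooled either 5 intact flies or the midguts of 10. Each of the 4 groups (whole fly unmodified, whole fly glucose, midgut unmodified, midgut glucose) had 3 samples, each on its own Affymetrix 3' array. No males and no separate antennae, heads or mouthparts were sampled. Whether the 3 samples of a group were separate cultures is not labelled, so the spread behind each p-value may be technical. With 3 arrays a group, precision is limited.

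Odorant-binding proteins are small soluble proteins held together by disulfide bonds. Support cells of the olfactory and taste hairs secrete many of them into the fluid around the sensory neurons, where they bind odorants and other small hydrophobic molecules. Several are also made outside chemosensory organs, among them in glia, in the fat body and in the male reproductive tract. The family is sorted by its conserved cysteines: minus-C members lack some of them, plus-C members carry extra ones, and dimer members hold a pair of binding-protein domains.

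Whole fly arrays had median log2 signals of 4.04 to 4.15 and midgut arrays of 3.43 to 3.47. The median difference of all 18769 probe sets between midgut and whole fly was -0.14 on the unmodified and -0.17 on the glucose diet. The labels were checked against markers: of 23 measured midgut genes, 23 were called higher in midgut on the unmodified and 22 on the glucose diet, "called" meaning a limma adjusted p under 0.05 here and below. Photoreceptor markers averaged 2.54 to 2.63 on midgut arrays, below the array median, against 7.53 to 9.23 in whole flies. Male accessory gland and testis markers were dim in these females, 1 of 29 lying above the array median on all 6 whole fly arrays. Below, a signal is dim when it is at or below the median of its own array. No detection call was used, so a fold against a dim signal is that of the deposited values and not a measured ratio of transcripts.

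In whole flies, 19 of the 47 members (40.4%) lay above the array median on all 6 arrays, against 61.5% of all named genes. These were Obp18a, Obp19a, Obp19b, Obp19d, Obp28a, Obp44a, Obp49a, Obp56a, Obp56d, Obp56e, Obp56g, Obp57a, Obp57b, Obp57c, Obp69a, Obp83b, Obp99a, Obp99b and Obp99c. In midgut the number was 7 (14.9%, against 59.4% of all named genes): Obp18a, Obp56d, Obp57a, Obp58c, Obp99a, Obp99b and Obp99c. Per array, 21 or 22 members exceeded the median in whole flies and 7 to 9 in midguts. The receptor families that work in the same sensory hairs were dim in RNA of the whole animal. None of 56 odorant receptor (Or), 53 ionotropic receptor (Ir) or 56 gustatory receptor (Gr) genes was above the median on all 6 whole fly arrays, and the co-receptor gene Orco read 2.77 to 3.18. In whole-animal RNA, fewer cells of a type and less RNA per cell cannot be told apart.

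Another 25 members were dim on every whole fly array, with signals between 1.72 and 4.10 and a median of 2.60. Among them were Obp57e, described in taste hairs of the legs, Obp59a, linked to humidity sensing in the antenna, and Obp56h, linked to mating behaviour. The remaining 3, Obp19c, Obp83cd and Obp84a, crossed the median. Obp19c was the most uneven of them. It read 6.48, 6.65 and 3.17 on the unmodified and 7.40, 6.14 and 4.86 on the glucose whole fly arrays, the third sample being lowest on each diet. A second probe set for Obp19c was dim on all 12 arrays, so the probe sets of this gene disagree. Over both tissues, 6 members were above the median on all 12 arrays and 23 were dim on all 12.

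**Figure D1:**
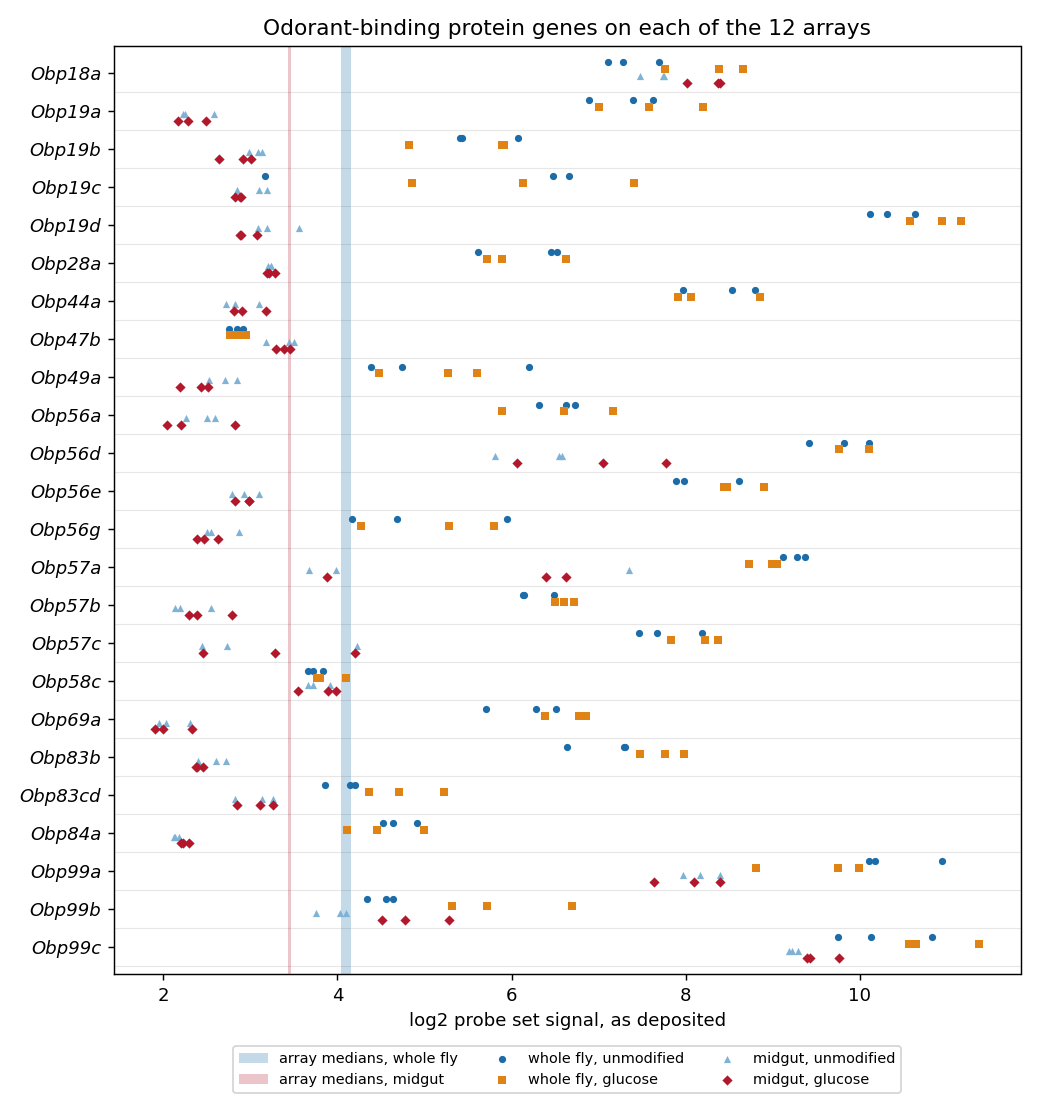
Deposited log2 probe set signal (horizontal axis) of 24 Obp genes (rows) on each of the 12 arrays, with 1 symbol per array and 4 symbols for the groups of 3. The shaded bands span the array medians, 4.04 to 4.15 in whole flies and 3.43 to 3.47 in midguts. In 11 rows all whole fly symbols lie to the right of the blue band and all midgut symbols to the left of the red one, while Obp18a and Obp58c have the tissues overlapping.

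The cysteine classes differed in how many members were bright, that is, above the median on all 6 whole fly arrays. Of 6 minus-C members 4 were bright (Obp44a, Obp99a, Obp99b and Obp99c), and of the 28 members outside the 3 classes 14 were. Of 11 plus-C members 1 was bright, Obp49a, and of the dimer members Obp83cd and Obp83ef none was. The mean over the 11 plus-C members lay between 2.77 and 2.94 on every whole fly array. Of 7 members reported in male seminal fluid, Obp56e and Obp56g were bright in these females and the other 5 were dim. These classes were not tested against each other.

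Many Obp genes lie side by side. In the RefSeq gene table, which served for gene names and neighbours only, 24 members sit in 9 runs of adjacent Obp genes with no other gene between them. Of the 7 runs with at least 2 measured members, 3 held both bright and other members. Within the run Obp56a, Obp56b, Obp56c and Obp56d, the outer genes were bright and the inner ones dim. Obp56e was bright beside its dim neighbour Obp56f. All 3 of Obp57c, Obp57b and Obp57a were bright, whereas all 4 of Obp59a, Obp58b, Obp58c and Obp58d, and all 3 of Obp83cd, Obp83ef and Obp83g, were not. Bright members numbered 10 of the 24 in runs and 9 of the 23 outside them.

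The contrast between tissues asked which of these genes read higher or lower in dissected midgut than in the whole fly. On the unmodified diet 25 members were called lower and 2 higher, 27 of 47 against a background of 55.5% of all probe sets (40.6% lower, 14.9% higher). On the glucose diet 25 were called lower and 1 higher, 26 of 47 against 53% (41.2% lower, 11.8% higher). The median difference of the members was -0.31 and -0.43, against -0.14 and -0.17 over all probe sets. Of the members called lower, 23 were called lower on both diets, out of 25 on each. The share of all probe sets called lower on both was not computed, so this count has no background. The tissues' arrays did not overlap for 33 members on the unmodified (70.2% against 63%) and 29 on the glucose diet (61.7% against 60.1%). The 2 contrasts share no array, but their spread comes from 1 fit over all 12.

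How the arrays were scaled decided the direction of the dim members. With the deposited values 25 members were called lower and 2 higher on the unmodified diet, with each array centred on its median 18 were lower and 23 higher, and with quantile normalization 22 were lower and 9 higher. On the glucose diet these splits were 25 and 1, 20 and 24, and 21 and 3. Over all probe sets centring moved the median difference from -0.14 to 0.48 on the unmodified and from -0.17 to 0.50 on the glucose diet, and quantile normalization to 0.06 and 0.07. The 19 bright members were chosen for high whole fly signals, which by itself favours lower midgut values, so their counts are a description. Of these, 17 were called lower and none higher with the deposited values on the unmodified diet, 16 lower and 1 higher after centring, and 17 and 1 after quantile normalization. On the glucose diet the same counts were 18 and 0, 17 and 1, and 17 and 0. Outside the bright set, 8 members were called lower and 2 higher on the unmodified diet as deposited, but 2 lower and 22 higher after centring. Differences are therefore given for the bright members first.

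Of the bright members, 11 were dim on all 6 midgut arrays: Obp19a, Obp19b, Obp28a, Obp44a, Obp49a, Obp56a, Obp56e, Obp56g, Obp57b, Obp69a and Obp83b. That is 57.9% of the 19, and of the 7366 named genes chosen by the same rule on the whole fly arrays 5.88% were dim on all midgut arrays. The share called lower was 89.5% of the 19 on the unmodified and 94.7% on the glucose diet, against 69.1% and 68.6% of those 7366 genes. The median difference was -3.96 and -3.29 for the 19 and -1.02 and -0.88 for the 7366. In 8 members (Obp19a, Obp19d, Obp44a, Obp56a, Obp56e, Obp57c, Obp69a and Obp83b) midgut was lower by more than 4 on the log2 scale on both diets. The share of the 7366 genes with gaps of this size was not computed.

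Obp19d, described in several olfactory and taste organs, showed the widest gap. Its whole fly arrays read 10.63, 10.31 and 10.12 on the unmodified and 10.58, 11.16 and 10.95 on the glucose diet. Midgut read 3.56, 3.09 and 3.19, and 2.88, 3.08 and 2.89. The tissues did not overlap, and midgut minus whole fly was -7.08 (SE 0.18) on the unmodified diet, a 135-fold gap, with a limma adjusted p of 5.83e-11. On the glucose diet the difference was -7.95 (SE 0.18), a 247-fold gap. The suffix of this probe set marks probes shared by more than 1 transcript, so its reading may not be of Obp19d alone.

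The antennal members described here were all lower in midgut. Obp83b, the OS-E protein of the hairs that hold pheromone-sensing neurons, read 7.31, 7.29 and 6.64 on the unmodified and 7.48, 7.98 and 7.76 on the glucose whole fly arrays. Its 6 midgut readings were 2.40, 2.61 and 2.72, and 2.46, 2.38 and 2.37, a difference of -4.50 (SE 0.18) on the unmodified diet with a limma adjusted p of 1.36e-09. Obp19a read 7.63, 7.40 and 6.89, and 7.001, 8.20 and 7.58 in whole flies, and 2.24, 2.23 and 2.58, and 2.49, 2.17 and 2.28 in midguts. The difference was -4.95 (SE 0.26) on the unmodified diet, and a second Obp19a probe set gave -3.40, the same direction with a smaller size. Obp69a, linked to the response to a male pheromone, differed by -4.07 (SE 0.20), and Obp28a, an abundant antennal protein, by -2.97 (SE 0.24) on the unmodified diet. The odorant-binding protein gene lush, whose symbol keeps it outside the 47, differed by -2.17 (SE 0.15) on the unmodified and -2.76 (SE 0.15) on the glucose diet.

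Obp44a, a minus-C member described in glia of the nervous system, read 8.80, 7.97 and 8.53, and 8.85, 8.06 and 7.91 in whole flies. Midgut read 2.72, 2.82 and 3.10, and 3.18, 2.90 and 2.81. All midgut arrays were dim, and the difference on the unmodified diet was -5.55 (SE 0.25, limma adjusted p 2.90e-09). Obp56e, found in antennae and also reported in seminal fluid, read 8.62, 7.89 and 7.99, and 8.47, 8.44 and 8.90 in whole flies against 2.92, 2.79 and 3.10, and 2.82, 2.99 and 2.99 in midguts. That is a difference of -5.23 (SE 0.18) with no overlap between tissues.

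**Figure D2:**
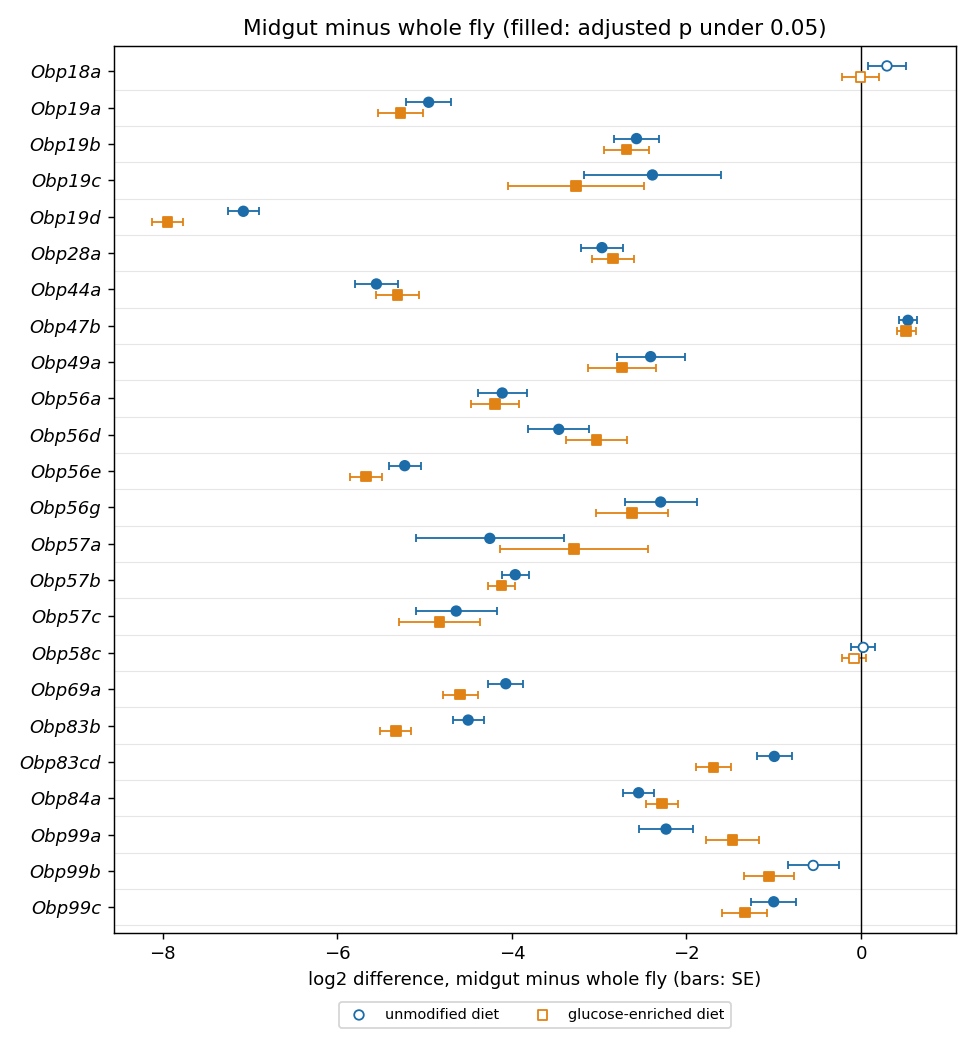
Midgut minus whole fly log2 difference (horizontal axis, bars 1 SE of the limma fit) for 24 Obp genes (rows), with circles for the unmodified and squares for the glucose-enriched diet, filled where the adjusted p is under 0.05. Most symbols lie left of 0, Obp19d farthest at -7.08 and -7.95, whereas Obp18a (0.30 and -0.01) and Obp58c (0.03 and -0.08) lie near 0 and Obp47b to the right.

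A smaller set of members was also above the median in midgut. Obp18a read 7.69, 7.11 and 7.28, and 8.66, 7.77 and 8.38 in whole flies, and 7.47, 7.76 and 7.74, and 8.01, 8.38 and 8.40 in midguts. The tissues overlapped within each diet, with differences of 0.30 (SE 0.22, limma adjusted p 0.273) and -0.01 (SE 0.22). After median centring Obp18a was called higher in midgut, by 0.91 and 0.67, and after quantile normalization by 1.11 on the unmodified diet. Obp58c sat near the median of both kinds of array, between 3.66 and 4.10 in whole flies and between 3.54 and 3.98 in midguts. Its difference was 0.03 (SE 0.13) on the unmodified diet, with the deposited values. After median centring and after quantile normalization Obp58c was called higher in midgut on both diets, by up to 0.70 unmodified and 0.67 on glucose. No direction between tissues is therefore given for it.

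The minus-C genes Obp99a, Obp99b and Obp99c lie on the same chromosome arm but are not adjacent, and all 3 were above the median in midgut. Symbols are those of the platform annotation: RefSeq lists Obp99d as another name of Obp99b, Obp99b as one of Obp99c, and Obp57a and Obp57c as names of each other, so older accounts may use them differently. Obp99a read 10.95, 10.17 and 10.11, and 9.75, 9.99 and 8.80 in whole flies. Midgut gave 8.17, 8.40 and 7.97, and 8.09, 8.39 and 7.64. The difference was -2.23 (SE 0.31, limma adjusted p 3.13e-05) on the unmodified and -1.47 (SE 0.31) on the glucose diet, with no overlap. For Obp99c the whole fly arrays read 10.82, 9.75 and 10.12, and 11.37, 10.56 and 10.65, and the midgut arrays 9.19, 9.29 and 9.22, and 9.43, 9.76 and 9.40. On the unmodified diet this was 10.23 ± 0.54 in whole flies against 9.23 ± 0.06 in midguts (SD, n = 3; SE of the difference 0.25, limma adjusted p 0.00448), and on the glucose diet the difference was -1.33 (SE 0.25). The first of these was not called after median centring, at -0.39. Obp99b, also named tsx and known from the male fat body, differed by -0.55 (SE 0.29, limma adjusted p 0.133) on the unmodified and -1.05 (SE 0.29, limma adjusted p 0.00773) on the glucose diet. The unmodified value was 0.07 after median centring and 0.33 after quantile normalization, and it was called lower when only the 6 arrays of that diet were fitted (limma adjusted p 0.00710) or without whole fly glucose replicate 1 (0.0281). The glucose value was -0.38 and not called after centring and 0.05 after quantile normalization, so no direction between tissues is given for Obp99b. Of the fat body list, 10 of 12 measured genes were called lower in midgut on each diet, against 40.6% of all probe sets on the unmodified and 41.2% on the glucose diet. The list had array means of 9.34 to 9.81 in whole flies and 7.89 to 8.24 in midguts, and its part in the Obp99 values was not tested.

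Midgut readings of Obp57a, Obp57c and Obp56d were uneven between samples. Obp57a read 9.37, 9.28 and 9.12, and 8.72, 8.99 and 9.04 in whole flies. In midguts it read 7.35, 3.67 and 3.99 on the unmodified and 3.88, 6.39 and 6.63 on the glucose diet. Sample 1 was thus far above the others on the unmodified diet and far below them on the glucose diet. Obp57c read 8.19, 7.46 and 7.67, and 8.37, 7.83 and 8.22 in whole flies, against 4.22, 2.45 and 2.74, and 2.45, 4.20 and 3.28 in midguts. Its high midgut readings fell on the same 3 samples. Obp56d, found in antennae and taste organs, read 10.10, 9.41 and 9.81, and 9.76, 10.11 and 10.11 in whole flies, and 6.58, 6.55 and 5.81, and 6.07, 7.77 and 7.05 in midguts.

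The midgut minus whole fly difference on the unmodified diet was -4.25 (SE 0.85) for Obp57a, -4.64 (SE 0.46) for Obp57c and -3.46 (SE 0.35) for Obp56d, all called. Their adjacent relative Obp57b stayed dim on all midgut arrays, between 2.14 and 2.79, and differed by -3.96 (SE 0.16). On the same 6 midgut arrays the CheA and CheB genes, another family of secreted chemosensory proteins, averaged 2.45, 2.39 and 2.28, and 2.29, 2.25 and 2.32, and photoreceptor markers stayed between 2.54 and 2.63. The fat body list averaged 8.17, 8.05 and 8.04, and 7.89, 8.24 and 7.95. The mean of that list was highest in unmodified sample 1 and glucose sample 2, as were Obp57c and Obp56d, whereas Obp57a was highest in glucose sample 3. Its genes differed: Yp1, apolpp, Mtp and Cyp4g1 were highest in unmodified midgut sample 1, and the other measured genes of the list were not. Cyp4g1 read 10.55, 8.74 and 9.20 on the unmodified midgut arrays, whereas Yp2 read 11.89, 11.95 and 11.99 and Lsp2 5.24, 5.68 and 5.47. The midgut list averaged 11.52, 11.54 and 11.25, and 11.18, 11.44 and 11.09, also highest in glucose sample 2. The part of the fat body list in the uneven readings was not tested.

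The members called higher in midgut were dim or nearly so. Obp47b, a plus-C member, read 2.75 to 2.94 in whole flies and 3.18 to 3.51 in midguts, with differences of 0.54 (SE 0.11) and 0.52 (SE 0.11), called on both diets. Obp50e, also plus-C, read 2.39 to 2.60 in whole flies and 2.37 to 3.03 in midguts and was called on the unmodified diet alone, at 0.39 (SE 0.11, limma adjusted p 0.00768). Whether the 2 diets differ in this was tested as the difference of diet effects, which was not called (limma adjusted p 0.216).

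The diet comparison in whole flies asked which members differed after 10 days on glucose. None of the 47 was called, against a background of 3.11% of all probe sets, and 9 had an unadjusted limma p under 0.05 (19.1% against 21.4%). Of these 7 were higher (14.9% against 9.41%) and 2 lower (4.26% against 12%). For 10 members (21.3% against 25.4%) no glucose array fell within the range of the unmodified ones, with 8 higher (17% against 11.6%) and 2 lower (4.26% against 13.7%). Of all members 35 read higher and 12 lower on glucose, whereas 49.7% of all probe sets read higher. These signs were not tested, and the members share the same arrays. The median difference was 0.10 over the members and 0.29 over the 19 bright ones, against -0.001 over all probe sets. The part of the animal behind each reading cannot be told from whole-fly RNA.

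Obp99b came nearest to a call. It read 4.64, 4.34 and 4.55 on the unmodified and 6.70, 5.32 and 5.72 on the glucose diet. Every glucose array was above every unmodified one, and glucose replicate 1 stood highest. The difference was 1.40 (SE 0.31), a 2.64-fold value, with a limma adjusted p of 0.0540. Obp18a followed with 0.91 (SE 0.24, limma adjusted p 0.0796), from 7.36 ± 0.30 to 8.27 ± 0.46 (SD, n = 3), again with no overlap. Without whole fly glucose replicate 2, 3 members were called (Obp18a, Obp83cd and Obp99b) and 1563 probe sets in all instead of 584. Without any 1 of the other 5 arrays no member was called and at most 2 probe sets were.

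The antennal gene Obp83b read higher on glucose by 0.66 (SE 0.21, limma adjusted p 0.116), its 3 glucose arrays all above the unmodified ones. The dimer member Obp83cd read 4.14, 3.85 and 4.21 against 5.22, 4.36 and 4.71, a difference of 0.70 (SE 0.21, limma adjusted p 0.109) with no overlap. For Obp57b and the dim Obp58d the differences were 0.35 (SE 0.13) and 0.33 (SE 0.12), also without overlap. Obp19d differed by 0.54 (SE 0.18), and the lowest glucose array, at 10.58, lay below the highest unmodified one, at 10.63. Outside the 47, lush differed by 0.52 (SE 0.14, limma adjusted p 0.0776).

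Both members with a lower value and no overlap were bright ones. Obp99a differed by -0.89 (SE 0.33, limma adjusted p 0.170), with 3 readings from 8.80 to 9.99 on glucose and 10.11 to 10.95 without. Obp57a differed by -0.34 (SE 0.12, limma adjusted p 0.167). Obp99a and Obp99b therefore had values of opposite sign, and Obp99c, at 0.63 (SE 0.30), overlapped between diets. None of these 3 values was called.

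The spread between whole flies limited some members more than others. Obp49a, made by support cells of taste hairs and known for the suppression of sweet taste by bitter compounds, read 6.20, 4.38 and 4.74, and 4.48, 5.61 and 5.27. Its difference was 0.01 (SE 0.47). Obp56g read 5.95, 4.17 and 4.68, and 4.27, 5.79 and 5.28, with the same samples high. A list of 11 olfactory genes outside the Or, Ir and Gr families, Orco and lush among them, had array means in the same order, 4.72, 4.37 and 4.40, and 4.40, 4.81 and 4.59. That order is of the means and not of each gene: a10 alone of the list followed it in full. The other genes of the list, Orco and lush among them, did not. CheA and CheB genes averaged 4.02, 3.75 and 3.74, and 3.64, 3.97 and 4.02, so they too were highest in unmodified sample 1 and lowest in glucose sample 1. The part of this shared order in the Obp49a and Obp56g values was not tested.

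**Figure D3:**
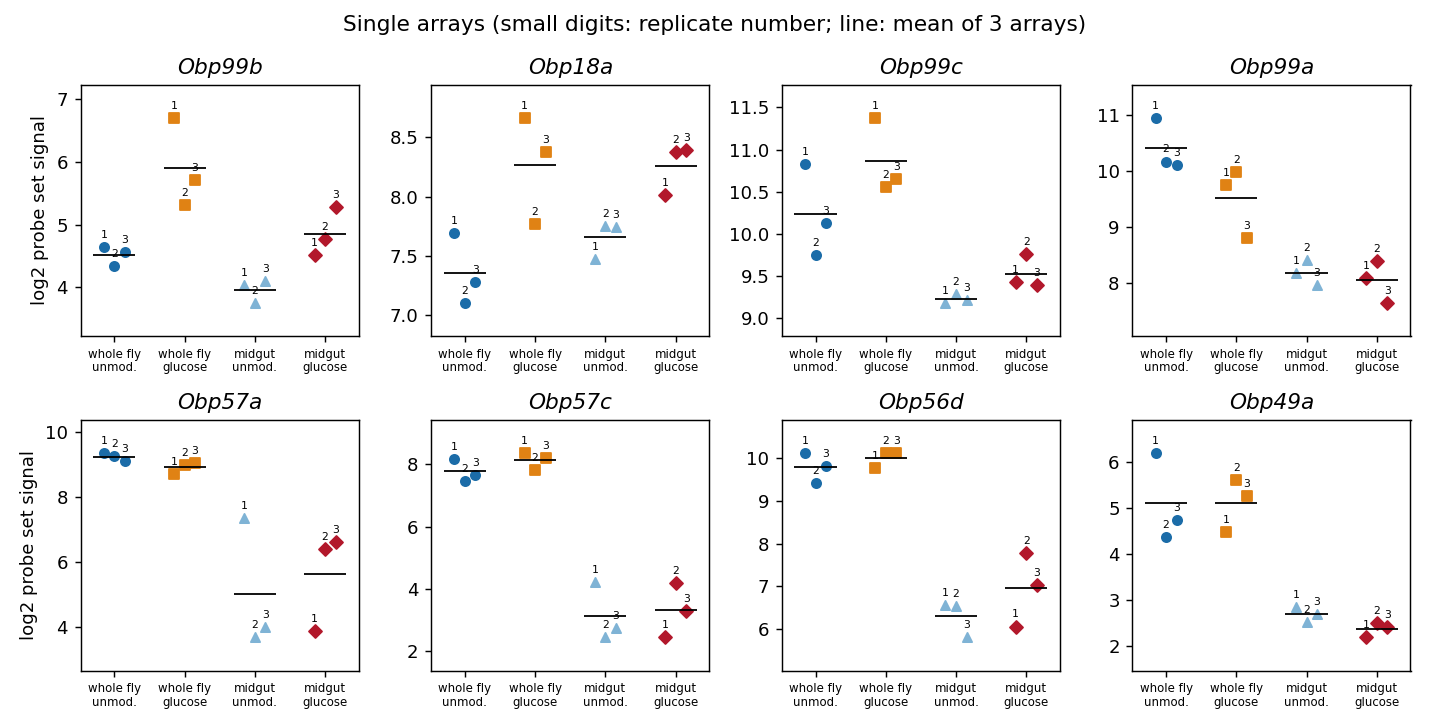
Deposited log2 signal (vertical axes, each with its own range) of 8 Obp genes on the 12 arrays, by group (horizontal axis), with the replicate number above each point and a line at the mean of 3 arrays. For Obp99b and Obp18a the glucose points lie above the unmodified ones in whole flies and in midguts, while Obp57a, Obp57c and Obp56d spread widely within the midgut groups and Obp49a within the whole fly groups.

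Other lists moved in whole flies on the same arrays. Of 7 measured photoreceptor markers 6 were called higher on glucose, with a median difference of 1.17 and array means of 7.53 to 7.94 unmodified and 8.49 to 9.23 on glucose. Of 17 ovary and egg genes 4 were called lower, with a median difference of -0.91 and array means of 9.38 to 10.03 unmodified and 7.81 to 9.18 on glucose. Of 12 fat body genes 1 was called higher, and array means overlapped between diets. All 8 hemocyte genes had higher values (0.50 to 1.34, median 0.67), with 1 called, and array means of 5.98 to 6.56 unmodified and 6.56 to 7.41 on glucose. Of 14 immune genes 2 were called higher and 1 lower, with a median of 0.34 and array means of 5.95 to 6.24 and 6.39 to 6.74. None of 176 peripheral olfaction genes (the receptors and the 11 others), 12 CheA and CheB genes or 12 takeout-family genes, which encode further secreted ligand carriers, was called in either direction. The 3' minus 5' difference of the Gapdh control probe sets, a sign of RNA integrity, was 4.33 to 5.69 unmodified and 3.95 to 5.09 on glucose, overlapping. The part of these shifts in the Obp values was not tested.

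In midgut the diet comparison asked the same question of the dissected organ. Again 0 of 47 members were called, against a background of 0.00533% of all probe sets (1 probe set). At an unadjusted limma p under 0.05 there were 6 members (12.8% against 6.2%), 3 of them higher and 3 lower (6.38% each, against 3.47% higher and 2.73% lower). The diets did not overlap for 10 members (21.3% against 11.7%), 6 higher (12.8% against 6.36%) and 4 lower (8.51% against 5.34%). The median difference of the members was -0.004 against 0.0007 over all probe sets. Ovary and egg genes, of which none was called, averaged 3.62, 3.10 and 3.68, and 4.49, 3.37 and 3.11 on these arrays, highest in glucose sample 1. Genes of this list differed: osk read 9.55, 4.97 and 3.42 on the glucose arrays, whereas vas read 1.94, 1.79 and 2.02. Of 12 fat body genes none was called and 7 had an unadjusted p under 0.05, 3 higher and 4 lower. The part of the ovary and fat body lists in the midgut values was not tested. Over the alternatives the differences given next ranged from 0.68 to 1.07 for Obp99b and from 0.51 to 0.73 for Obp18a.

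Obp99b read 4.03, 3.75 and 4.10 on the unmodified and 4.51, 4.78 and 5.28 on the glucose diet in midgut. The groups did not overlap, and the difference was 0.89 (SE 0.20, limma adjusted p 0.540), a 1.86-fold value. Obp18a differed by 0.61 (SE 0.14, limma adjusted p 0.572), a 1.52-fold value, from 7.66 ± 0.16 to 8.26 ± 0.21 (SD, n = 3). Obp99c read higher by 0.29 (SE 0.12), from 9.23 ± 0.06 to 9.53 ± 0.20 (SD, n = 3). The other 3 had lower values and were dim or nearly so on these arrays: Obp19d at -0.33 (SE 0.14), Obp49a at -0.32 (SE 0.13) and Obp50e at -0.34 (SE 0.13). Obp57a, with its uneven samples, had a difference of 0.63 and an SE of 1.05, so a change of several fold in either direction would not have been detectable.

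Obp18a and Obp99b were the 2 members whose diets did not overlap in whole flies and in midguts, with higher values on glucose in each. Over all probe sets the diets did not overlap for 25.4% in whole flies and 11.7% in midguts. The share without overlap in both was not computed, so these 2 members are a description. The 2 diet comparisons share no array, although a whole fly contains a midgut. No member's diet effect was called different between tissues, against a background of 0.0426% (8 probe sets), and 5 had an unadjusted limma p under 0.05 (10.6% against 15.1%), all with a lower effect in midgut (background 6.28% lower). These were Obp19d, Obp50e, Obp58d, Obp83b and Obp83cd. The difference of diet effects was -0.87 (SE 0.25, limma adjusted p 0.147) for Obp19d and -0.83 (SE 0.25, limma adjusted p 0.160) for Obp83b. For Obp99b and Obp18a it was -0.51 (SE 0.41) and -0.30 (SE 0.30).

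**Figure D4:**
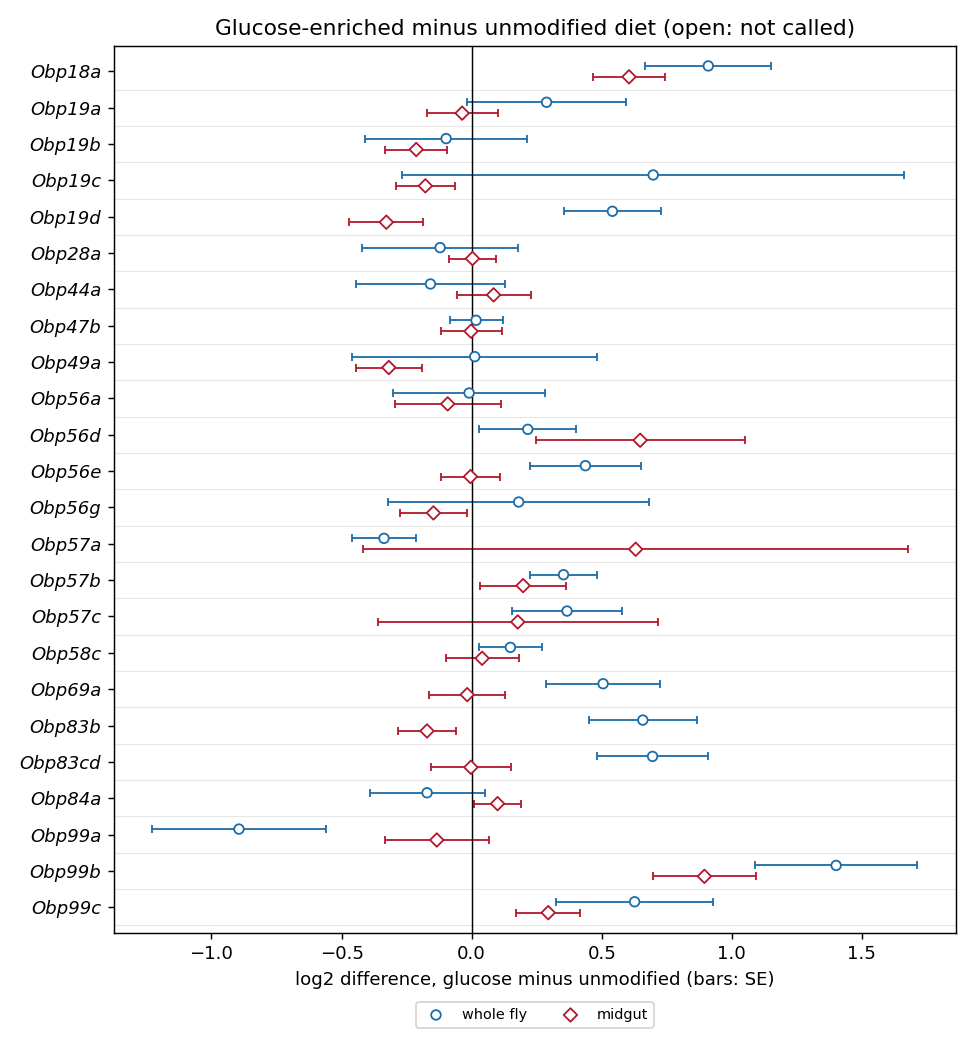
Glucose minus unmodified log2 difference (horizontal axis, bars 1 SE of the limma fit) of 24 Obp genes (rows) in whole flies (circles) and midguts (diamonds), all open since none had an adjusted p under 0.05. Obp99b (1.40 and 0.89) and Obp18a (0.91 and 0.61) lie to the right in both tissues, Obp99a lies left in whole flies at -0.89, and Obp57a has the widest midgut bar.

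Some Obp genes could not be read alone. Obp50b and Obp50c shared 2 probe sets, and Obp57d shared 2 with the cuticle protein gene Cpr57A. One of the latter was above the median on all 12 arrays, with means of 6.21 and 6.67 in whole flies and 4.82 and 4.74 in midguts, unmodified and glucose in that order. Its whole fly diet difference was 0.46 (limma adjusted p 0.0709), and it cannot be assigned to either gene. The other Obp57d and Cpr57A probe set was dim on all 12 arrays.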

How the data were processed

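Total RNA, extracted with Trizol per the labels' protocols, was labelled as biotinylated cRNA and hybridised to 12 Affymetrix 3' arrays. The authors deposited log2 signals by probe set and array, made in Affymetrix Expression Console per the submitters' processing notes. The sources used here name neither its version nor its algorithm, nor say if both tissues were normalized as 1 batch, which could shift every midgut value. That the scale is log2 was inferred from the range of the values. Of 18952 probe sets 183 controls were left out. Of the 18769 tested, 13647 carry 1 gene symbol in the platform annotation, 402 carry several and 4720 none listed. RefSeq changed 0 symbols, and its gene positions served only to order the genes along each chromosome arm.

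Diet effects came from limma 3.58.1 (lmFit and eBayes, R 4.3.3), fitted to the 6 arrays of a tissue. Tissue contrasts and the difference of diet effects used all 12. Benjamini-Hochberg adjustment of the two-sided p-values covered the whole table, with calls under 0.05. The fit was tested on simulated data. The largest share of identical values between arrays of a group was 0.0213%, and none was treated as a duplicate. Same-numbered midgut samples deviated together (correlations of 0.392, 0.313 and 0.357). Their numbers were therefore taken to pair them, from the data and not the labels, but only in an alternative fit, the replicate block. The main fits left this pairing out, so their SEs and p-values treat the samples as unpaired.

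Members and lists were chosen with earlier results of these data known. Array values are given for members among the 10 highest whole fly or 5 highest midgut means, above the median on all midgut arrays, or, at an unadjusted p under 0.05 in a diet comparison, without overlap. Obp19c, Obp47b and Obp56g were added after their values were seen. Alternatives were a filter on the dimmest 40% of probe sets, median centring, quantile normalization, a trended robust prior, probe set means, the replicate block, other array sets and leaving out each array.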

Additional observations from a re-analysis of the deposited data

How the results depend on the processing

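In midgut the diet comparison called 0 of 47 members under every alternative run, as did the difference of diet effects, with unadjusted counts of 6 and 5. In whole flies the count of 0 rose to 1 with a trended robust prior (Obp99b), to 3 with all 12 arrays in 1 fit (Obp18a, Obp83b and Obp99b) and to 4 with the replicate block (Obp18a, Obp83cd, Obp99b and Obp99c, with 1711 probe sets called in all against 584). Leaving out 1 array gave 0 to 3. Whole fly numbers share only a number: same-numbered correlations were 0.198, 0.306 and -0.008, and unmodified sample 3 correlated best with glucose sample 1. In midgut the block called 24 probe sets and no member, and it changed no member count between tissues. Between tissues, median centring raised the calls from 27 to 41 on the unmodified and from 26 to 44 on the glucose diet. Leaving out 1 array gave 24 to 28 and 25 to 26. The glucose difference of Obp99b between tissues turned from -1.05 to 0.051 with quantile normalization and was -0.38, not called, after median centring; the unmodified one, -0.55, was 0.07 after centring and 0.33 after quantile normalization. Of 934 values for single genes under alternatives, 905 kept their side of the threshold, 28 of these with a change of sign in a value not called, 25 came to pass it, 3 no longer passed it and 1 reversed. Where values changed the cause was not tested, except that the filter on the dimmest 40% left 18 to 26 members to test. Signals near the array median limit what can be read of the 23 members dim on all 12 arrays.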
